A study of Rattus norvegicus with 13 samples.

Results

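Potassium channel genes were taken as all genes whose platform symbol begins with Kcn and that have a probe set with exactly 1 symbol. They numbered 83 of the 14506 genes of the array, and where a gene had several probe sets the one with the highest mean over the 13 arrays was used. The arrays (Affymetrix Rat Gene ST) held RNA of cultured cells from adult Sprague Dawley rats. Skin-derived precursors (SKPs), dermal cells with neural crest-like properties, came from dorsal trunk, ventral trunk and facial skin, with 3 isolates each, and mesenchymal stromal cells (MSCs) gave 4 isolates. All cells had been passaged 2 times and no group carried a treatment or an altered gene. The tissue of origin of the MSCs and the number of rats behind an isolate were not stated in the labels. The series title asks whether such a dermal precursor forms alike from different developmental origins, and the MSCs serve as another adult mesenchymal cell.

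Potassium channels let potassium ions leave or enter the cell and so set the membrane potential. The voltage-gated (Kv) channels open on depolarisation, the calcium- or sodium-activated channels respond to ions inside the cell, the inwardly rectifying (Kir) channels hold the resting potential, and the 2-pore (K2P) channels carry leak current. Auxiliary subunits form no pore and change the gating, assembly or surface level of pore subunits. In cultured stromal cells and dermal fibroblasts, channels of several of these classes are known to influence volume, calcium entry and proliferation.

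The array measured 35 Kv genes, 16 auxiliary subunits, 15 Kir genes, 11 K2P genes and 6 calcium- or sodium-activated channels. Values are log2 expression, and because probe sets differ in affinity, a value of 1 gene was not set against that of another. No detection calls came with the values, so background was taken as the 95th percentile of the group means of 1105 olfactory receptor genes, which was 4.03 for the dorsal and the facial cultures, 3.94 for the ventral ones and 4.04 for MSCs. A gene was called when its limma p, adjusted by Benjamini-Hochberg over all 14506 genes, was below 0.05. Of the 83 members, 57 were above background in at least 1 group and 48 in all 4, against 75.9% and 69.1% of all genes. At the 99th percentile of the olfactory receptor genes the number was 32, and above the median of all genes 21, so the count rests on where the threshold is set. By group, 52 members were above background in dorsal SKPs (all genes 72.4%) and 52 in facial SKPs (all genes 72.7%). The numbers were 53 for ventral SKPs (all genes 72.8%) and 50 for MSCs (all genes 71.9%). All classes were represented, with 24 Kv genes, 11 auxiliary subunits, 9 K2P genes, 8 Kir genes and 5 calcium- or sodium-activated channels above background somewhere.

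The cultures differed in more than their labels. In 10 genes associated with SKPs, 6 were higher and 2 lower in SKPs than in MSCs, but dorsal isolate 3 had a list mean of 7.11, within the MSC range of 7.10 to 7.50, where the other SKP arrays had 8.23 to 8.72. Dorsal isolates 1 and 2 differed over 2-fold from each other in 3 of the 83 members (all genes 2.07%). Dorsal isolate 3 differed over 2-fold from isolate 1 in 7 members (all genes 9.55%) and from isolate 2 in 10 (all genes 7.67%). Its hypoxia and glycolysis list had a mean of 10.40, against 8.60 to 9.58 on the other 12 arrays. All 21 macrophage and leukocyte markers were measured, and their mean lay at 4.26 to 4.75 in MSCs, 5.40 to 5.76 in ventral, 4.18 to 7.32 in dorsal and 6.41 to 10.13 in facial SKPs. The 15 smooth muscle and pericyte markers averaged 8.09 and 8.30 for the first pair of MSC isolates, 9.27 and 9.55 for MSC isolates 3 and 4, and 5.72 to 6.26 for SKPs. The 17 measured cell cycle genes were all lower in SKPs, and the 7 measured keratinocyte markers had a mean of 3.67 to 3.88 on every array. In such bulk samples, fewer cells of a type and less RNA per cell cannot be told apart.

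Over the 4 groups 19 of the 83 members differed by limma's F test (22.9%, against 28.0% of all genes), and the difference between SKPs and MSCs was made up of higher values in SKPs in most cases. Of 17 members called between SKPs (mean of the 3 regions) and MSCs, 15 were higher and 2 lower in SKPs. Among all genes 25.3% were called, 13.1% higher and 12.2% lower, and the members' shares were 20.5%, 18.1% and 2.41%. The Kv channels Kcna3, Kcna1, Kcnf1 and Kcnh1, the subunits Kcnab1, Kcnab2 and Kcnip4 and the sodium-activated channel Kcnt1 were higher with a measured log2 difference of at least 1. For Kcnip4, which was below background in MSCs, the bound against background was at least 1.72-fold (0.78 on the log2 scale). By class, 7 Kv genes, 4 auxiliary subunits, 3 calcium- or sodium-activated channels and 1 Kir gene were higher, while 1 Kv and 1 K2P gene were lower. The median difference was 0.01 over the 83 members and -0.02 over all genes.

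**Figure D1:**
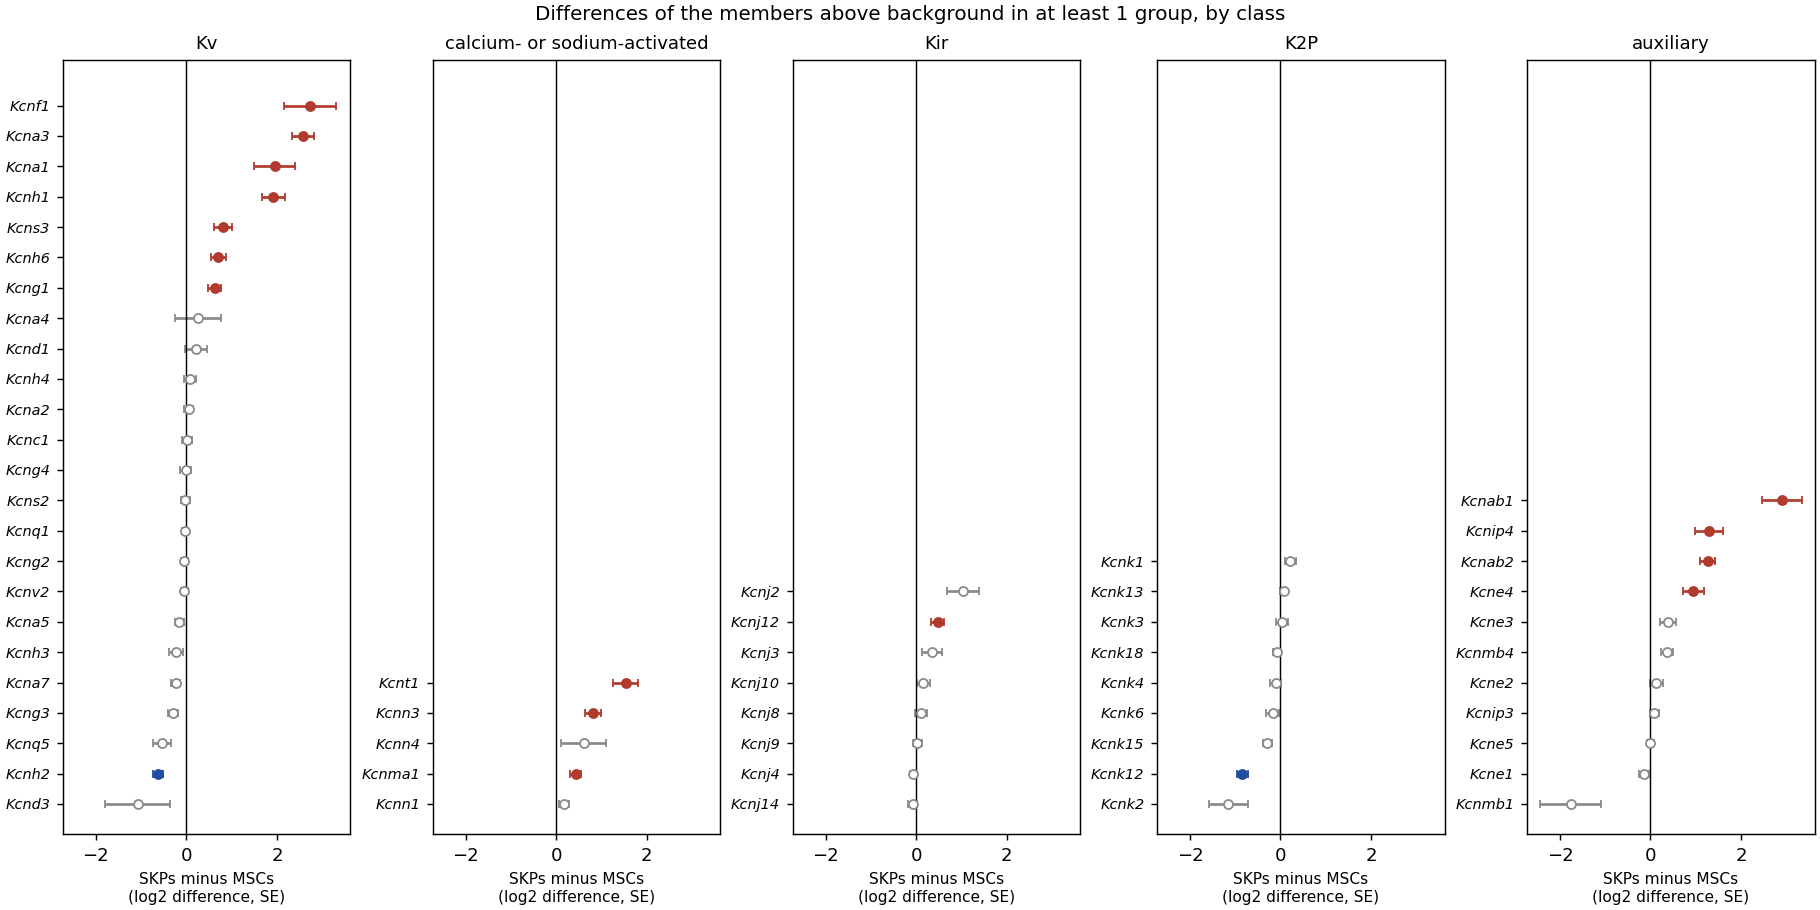
Log2 difference between SKPs (mean of 3 regions, 9 arrays) and MSCs (4 arrays) of the 57 members above background in at least 1 group, by channel class, with bars for the standard error of the fit. Filled points passed the adjusted p (red higher, blue lower in SKPs) and open grey points did not. The 15 filled red points run from Kcnma1 at 0.43 to Kcnab1 at 2.90, and the 2 blue points are Kcnh2 and Kcnk12.

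Of the 4 Kv channel genes with the largest differences, 2 were high in every SKP isolate. Kcna3, a pore subunit best known from lymphocytes and macrophages, stood at 7.88, 7.95 and 6.91 in dorsal isolates, 7.32, 7.48 and 8.14 in facial isolates and 6.70, 7.16 and 7.30 in ventral isolates, and the MSC isolates had 4.42, 4.56, 5.30 and 5.13. No SKP array overlapped with an MSC array, and the log2 difference was 2.58 (SE 0.24, adjusted p = 1.42e-05), a 5.97-fold higher level. By region, dorsal SKPs differed from MSCs by 2.73, facial SKPs by 2.80 and ventral SKPs by 2.21, each called. Kcnh1, the ether-a-go-go channel, which shows a link to proliferation in several cell types, stood at 6.79, 6.50 and 7.04 in dorsal isolates, 6.62, 6.59 and 6.42 in facial isolates and 6.35, 6.92 and 6.53 in ventral isolates. Its MSC values were 5.76, 4.54, 4.06 and 4.53, so MSC isolate 1 was the closest to SKPs and still below all of them. The difference was 1.92 (SE 0.25, adjusted p = 0.000167), and the region means of 6.78 ± 0.27, 6.54 ± 0.11 and 6.60 ± 0.29 (SD, n = 3 each) differed by at most 0.23, with no call. Arrays of both sides did not overlap in 12 of the 83 members, against 12.6% of all genes.

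The other pair of Kv genes varied between isolates. Kcnf1 encodes an electrically silent subunit that works only together with other Kv subunits. It stood at 8.69, 8.89 and 4.92 in dorsal isolates, 7.36, 7.55 and 7.59 in facial isolates and 7.49, 8.21 and 8.26 in ventral isolates, and the MSC isolates had 5.0, 5.28, 5.01 and 4.43. Dorsal isolate 3 thus lay within the MSC range, while the other 8 SKP arrays were above it. The difference was 2.73 (SE 0.58, adjusted p = 0.00438). Taken by region it was 2.57 (adjusted p = 0.0333) in dorsal and 2.57 (adjusted p = 0.0298) in facial SKPs, calls that were each lost in 6 of 13 fits that left out 1 array, and 3.05 (adjusted p = 0.00997) in ventral SKPs. Kcna1, a pore subunit of neurons that assembles with other Kcna subunits, stood at 6.86, 7.50 and 7.30 in facial isolates, 5.86, 7.32 and 6.03 in ventral isolates and 4.86, 6.94 and 3.90 in dorsal isolates, and the MSC isolates had 4.75, 4.15, 4.33 and 4.10. Facial and ventral arrays all exceeded the MSC arrays, and dorsal isolates 1 and 3 were near them. The difference was 1.95 (SE 0.45, adjusted p = 0.00754). It was 2.89 in facial (adjusted p = 0.00461), 2.07 in ventral (adjusted p = 0.0208) and 0.90 in dorsal SKPs (adjusted p = 0.349), and the facial minus dorsal difference of 1.98 was not called (adjusted p = 0.179).

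Both measured cytoplasmic beta subunits above background, which bind Kv pore subunits of the Kcna family, were higher together with Kcna3. Kcnab1 stood at 8.12, 6.42 and 8.60 in dorsal isolates, 7.07, 7.65 and 8.38 in facial isolates and 7.74, 6.66 and 6.74 in ventral isolates, and the MSC isolates had 4.28, 4.12, 5.77 and 4.18. MSC isolate 3 was the highest of its group and stayed below every SKP array, and the difference was 2.90 (SE 0.44, adjusted p = 0.000464), a 7.45-fold higher level. Kcnab2 stood at 6.89, 7.48 and 7.29 in dorsal isolates, 6.79, 6.21 and 6.96 in facial isolates and 6.34, 6.65 and 6.29 in ventral isolates, and the MSC isolates had 5.65, 5.49, 5.67 and 5.22. The groups did not overlap and the difference was 1.26 (SE 0.16, adjusted p = 0.000113), and the dorsal (1.71), facial (1.15) and ventral (0.92) differences were each called. The third beta subunit, Kcnab3, was below background in all groups. Further members of the Kcna family gave no call: Kcna2 differed by 0.05, Kcna5 by -0.15 and Kcna7 by -0.23.

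Promoter windows of the 4 members whose region differences from MSCs were called in each of the 3 regions and were the largest (Kcna3, Kcnh1, Kcnf1 and Kcnab1) are shown to compare their base composition. They are the 250 bases before the gene's start in RefSeq (GRCr8), with each GC box in capitals (GGGCGG, or CCGCCC on the other strand).
Kcna3: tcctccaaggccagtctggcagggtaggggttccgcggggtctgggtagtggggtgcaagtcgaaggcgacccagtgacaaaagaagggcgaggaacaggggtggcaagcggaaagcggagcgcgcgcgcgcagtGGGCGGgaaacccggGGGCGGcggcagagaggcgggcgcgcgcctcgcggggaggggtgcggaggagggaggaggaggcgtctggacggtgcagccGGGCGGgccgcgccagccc
Kcnh1: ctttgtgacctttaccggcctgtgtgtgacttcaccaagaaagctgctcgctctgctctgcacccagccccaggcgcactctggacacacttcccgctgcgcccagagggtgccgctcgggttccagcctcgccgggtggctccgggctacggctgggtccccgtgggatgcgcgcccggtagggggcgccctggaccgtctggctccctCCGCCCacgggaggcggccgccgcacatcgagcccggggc
Kcnf1: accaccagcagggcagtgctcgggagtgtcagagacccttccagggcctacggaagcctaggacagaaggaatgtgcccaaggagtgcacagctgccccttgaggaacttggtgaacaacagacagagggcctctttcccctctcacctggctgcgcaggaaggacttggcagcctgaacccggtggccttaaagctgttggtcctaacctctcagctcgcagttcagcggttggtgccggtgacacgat
Kcnab1: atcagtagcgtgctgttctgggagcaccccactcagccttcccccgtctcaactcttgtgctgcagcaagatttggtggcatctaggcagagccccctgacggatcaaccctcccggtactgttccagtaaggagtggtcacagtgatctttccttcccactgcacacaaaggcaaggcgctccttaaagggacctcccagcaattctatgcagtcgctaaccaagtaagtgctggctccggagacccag
The windows lie at chr2:197320074-197320323 (plus strand), chr13:106252966-106253215 (plus), chr6:45693707-45693956 (minus) and chr2:151614301-151614550 (plus). Kcna3 had 3 GC boxes, 29 CpG dinucleotides and 73.6% G and C, and Kcnh1 had 1 box, 24 CpG and 71.6%. Kcnf1 and Kcnab1 had 0 boxes, with 8 and 7 CpG and 59.6% and 56.0% G and C. The 4 members thus did not share this letter pattern. A GC box was in the window of 32.4% of 27457 genes and of 28 of the 58 members that RefSeq's table matched (48.3%). The median number of CpG was 6 over all genes and 11 over the matched members. A match is a description of the letters and says nothing of binding.

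**Figure D2:**
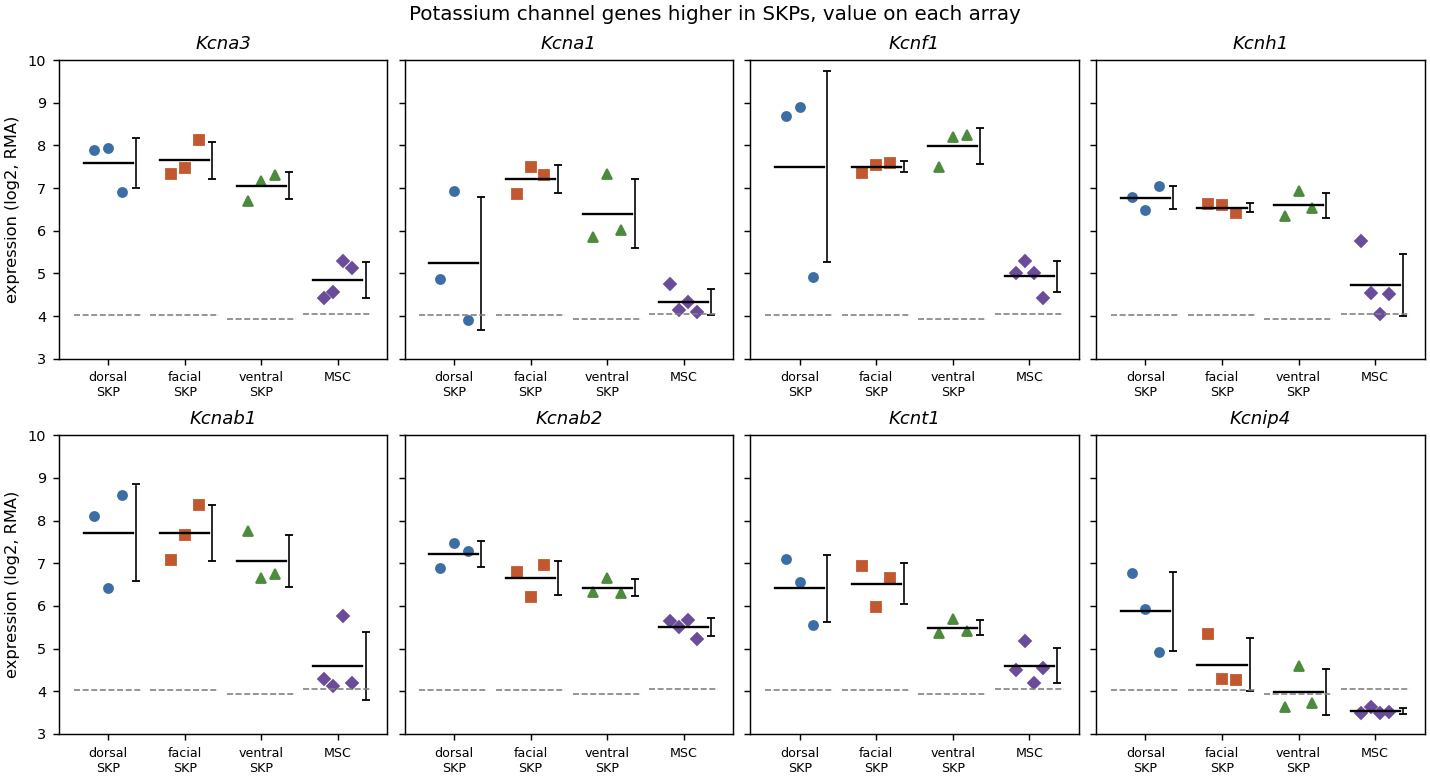
Log2 expression of the 8 members that were higher in SKPs by a measured log2 difference of at least 1, with 1 point per array, a bar for the group mean, an error bar for the SD (n = 3 per SKP region, n = 4 MSCs) and a dashed line for the background of the group. Kcna3, Kcnh1, Kcnab1, Kcnab2 and Kcnt1 have no overlap between SKP and MSC arrays, dorsal isolate 3 lies within the MSC range for Kcnf1 (4.92) and below it for Kcna1 (3.90), and the MSC values of Kcnip4 lie below the dashed line.

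Among the channels gated by ions inside the cell, Kcnt1 had the largest difference. Kcnt1, a sodium-activated channel, stood at 7.11, 6.57 and 5.55 in dorsal isolates, 6.92, 5.98 and 6.66 in facial isolates and 5.36, 5.70 and 5.42 in ventral isolates, and the MSC isolates had 4.50, 5.19, 4.19 and 4.54. The groups did not overlap, and the difference was 1.54 (SE 0.27, adjusted p = 0.00142), with calls in dorsal (1.80) and facial SKPs (1.92) and none in ventral SKPs (0.89, adjusted p = 0.0866). Facial minus ventral was 1.03 (adjusted p = 0.125), which did not pass. Kcnn3, a small-conductance calcium-activated channel, was higher by 0.81 (SE 0.18, adjusted p = 0.00582), with means of 5.75 ± 0.36 (dorsal), 6.13 ± 0.47 (facial) and 5.24 ± 0.16 (ventral), and 4.90 ± 0.26 for MSCs. The large-conductance pore gene Kcnma1 was below background in MSCs and at 4.23 to 4.51 in the SKP regions, a difference of 0.43 (SE 0.13, adjusted p = 0.0264) whose bound against background is at least 1.24-fold higher. Leaving out MSC array 3 (adjusted p = 0.0932) or 4 (0.0614) ended the call. Kcnn4, the intermediate-conductance channel of activated immune cells and fibroblasts, was not called (0.61, SE 0.50, adjusted p = 0.43). It stood at 8.52 ± 0.38, 7.80 ± 0.47 and 8.14 ± 0.47 in dorsal, facial and ventral SKPs, and the MSC isolates had 8.53, 8.56, 5.37 and 7.71. Without MSC array 3 its difference was -0.12.

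Smaller differences in the same direction were seen in 4 more pore genes and 1 auxiliary gene. The silent subunit Kcng1 was higher by 0.62 (SE 0.15, adjusted p = 0.00968), at 7.31 ± 0.19, 7.22 ± 0.35 and 7.12 ± 0.31 against 6.59 ± 0.22 in MSCs. Kcnh6, a relative of Kcnh2, was higher by 0.71 (SE 0.17, adjusted p = 0.00807), without overlap. Kcns3, another silent subunit, was higher by 0.81 (SE 0.20, adjusted p = 0.0117), but only facial SKPs (4.14 ± 0.29) were above background, so the size of its difference is not resolved. The inward rectifier Kcnj12 was higher by 0.47 (SE 0.15, adjusted p = 0.0319). This call was lost in 6 of 13 fits that left out 1 array, namely without dorsal array 1 (0.0517) or 2 (0.0539), MSC array 1 (0.0513), 2 (0.0884) or 4 (0.117), or ventral array 2 (0.0582). The auxiliary gene was Kcne4, with a difference of 0.95. Kcng1 and Kcnj12 are named for their high mean over all arrays, and Kcnh6, Kcnn3, Kcns3 and Kcnma1 were chosen after their values were seen.

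Both members that were lower in SKPs had nearly constant values there. Kcnk12, a K2P subunit, stood between 5.58 and 5.83 on the 9 SKP arrays and at 6.32, 6.27, 6.62 and 6.97 in MSCs, a difference of -0.84 (SE 0.12, adjusted p = 0.000254). Kcnh2, the channel of the cardiac rapid delayed rectifier current, stood at 4.24 ± 0.17, 4.22 ± 0.21 and 4.32 ± 0.08 in dorsal, facial and ventral SKPs and at 5.09, 4.64, 5.04 and 4.74 in MSCs, a difference of -0.62 (SE 0.11, adjusted p = 0.00148). Neither overlapped between SKPs and MSCs, each was called in all 3 regions, and both were chosen after their values were seen. For Kcnh2 the background was 4.03 in dorsal and facial and 3.94 in ventral SKPs. Facial isolate 1 (3.98) was below it, so the size of the Kcnh2 difference is less certain. Within the family of Kcnh1, Kcnh2 was lower where Kcnh1 and Kcnh6 were higher, and the other measured Kcnh genes were not called.

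The remaining members with high means on these arrays did not pass between SKPs and MSCs. Kcnd1, a rapidly inactivating Kv channel, stood at 7.86 ± 0.31, 7.49 ± 0.23 and 7.31 ± 0.27 in dorsal, facial and ventral SKPs and 7.34 ± 0.66 in MSCs (0.21, SE 0.24, adjusted p = 0.586; -0.028 without MSC array 3). Kcnq5, a slowly activating channel of the M-current family, stood at 6.82 ± 0.24, 6.92 ± 0.19 and 6.01 ± 0.44 against 7.13 ± 0.45 (-0.54, SE 0.20, adjusted p = 0.0656). In ventral SKPs alone its difference from MSCs was called (-1.12, SE 0.25, adjusted p = 0.0067), and over all SKPs it passed without MSC array 3 (-0.70, adjusted p = 0.027). Kcnk2, a mechanosensitive leak channel, stood at 7.02, 6.50 and 4.20 in dorsal isolates, 5.92, 6.97 and 6.97 in facial isolates and 5.61, 5.98 and 6.17 in ventral isolates, and the MSC isolates had 7.64, 7.01, 6.77 and 7.77. Dorsal isolate 3 was lowest, and the difference of -1.15 (SE 0.44, adjusted p = 0.0772) passed without that array (-0.86, adjusted p = 0.0249) or without dorsal array 1 (-1.33, adjusted p = 0.0293). The inward rectifier Kcnj2, which sets the resting potential of many cells, was at 5.99, 7.23 and 6.98 in facial isolates, 6.0, 6.02 and 6.12 in ventral isolates and 5.65, 5.13 and 4.89 in dorsal isolates, and the MSC isolates had 6.38, 4.20, 4.60 and 4.67. Its difference over all SKPs was 1.04 (SE 0.36, adjusted p = 0.051), and 1.51 (adjusted p = 0.0011) without MSC array 1, the only MSC array that overlapped with SKP arrays. Kcnj2 was called for facial SKPs against MSCs (1.77, SE 0.45, adjusted p = 0.0175) and by the F test over the 4 groups (adjusted p = 0.0378). The facial call was lost in 2 of 13 fits that left out 1 array, without facial array 2 or 3. The F test call was lost in 10 of 13 such fits. Kcnj2 was not among the 10 members with the highest mean and was chosen after its values were seen. Of the 40 members above background without a call, 31 had a difference below 0.3 in size. None of the 26 members below background in all groups was called here by limma, with differences from -0.33 to 0.21.

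Between SKP regions few members were called, and with all arrays those were auxiliary subunits. This class pattern rests on the threshold. For facial minus ventral, the pore genes Kcnn3 (0.89, limma adjusted p = 0.0514) and Kcnq5 (0.91, 0.0669) were just outside it. For dorsal minus ventral, pore genes were gained without dorsal array 2 (Kcna1), dorsal array 3 (Kcnt1) or ventral array 2 (Kcnj8). Over the 3 regions Kcne3, Kcne4 and Kcnip4 passed limma's F test (3 of 83, or 3.61%, against 8.08% of all genes). Of 13 fits that left out 1 array, this F test call was lost in 2 for Kcne3, 6 for Kcne4 and 10 for Kcnip4. For facial minus ventral SKPs 2 members were called (all genes 6.6%), 0 higher (all genes 2.25%) and 2 lower (all genes 4.36%). For dorsal minus ventral 3 were called (all genes 6.11%), 2 higher (all genes 2.35%) and 1 lower (all genes 3.76%). None was called for facial minus dorsal by limma (all genes 1.25%, 0.793% higher and 0.462% lower). Arrays did not overlap in 17 members for facial against ventral (all genes 36.4%), 22 for dorsal against ventral (all genes 28.7%) and 10 for facial against dorsal (all genes 17.4%). The F test count was 0 without ventral array 1 or 3, 1 without facial array 3, MSC array 2 or MSC array 4, and 6 without dorsal array 3. The count for facial minus ventral was 0 without facial array 1 or 3 or ventral array 1 or 3, and 5 without dorsal array 3. For dorsal minus ventral it was 1 without ventral array 1 (all genes 2.3%) and 0 without ventral array 3 (all genes 2.25%), so calls fell over all genes too. For facial minus dorsal it was 1 without dorsal array 2 (Kcna1, all genes 1.78%), dorsal array 3 (Kcnf1, all genes 1%) or MSC array 1 (Kcnj2, all genes 1.16%).

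Kcne3 and Kcne4, small single-span subunits of the Kcne family, were highest in ventral SKPs. Kcne3, which holds its partner Kcnq1 open, stood at 4.60, 3.46 and 4.37 in ventral SKPs, 2.72, 3.07 and 2.68 in dorsal SKPs, 2.97, 3.20 and 3.00 in facial SKPs and 2.81, 3.13, 2.79 and 3.07 in MSCs. Ventral isolates 1 and 3 were above background and isolate 2 was not, and no ventral array overlapped with another group. The difference was -1.32 (SE 0.24, adjusted p = 0.0103) for dorsal minus ventral and -1.08 (SE 0.24, adjusted p = 0.022) for facial minus ventral, and because the lower groups were below background the bound was only at least 1.08-fold higher in ventral SKPs. Kcne4, which inhibits Kcnq1 and some Kcna channels, stood at 7.46, 6.68 and 7.49 in ventral, 6.16, 6.06 and 6.99 in dorsal and 5.74, 6.16 and 5.55 in facial SKPs, and 5.22, 5.23, 6.0 and 5.66 in MSCs. All ventral arrays exceeded the facial and MSC arrays, and dorsal isolate 3 overlapped with them. Facial minus ventral was -1.39 (SE 0.31, adjusted p = 0.0205), dorsal minus ventral -0.81 (adjusted p = 0.151) and ventral minus MSCs 1.68 (SE 0.29, adjusted p = 0.00128). Over all SKPs, Kcne4 was higher than in MSCs by 0.95 (SE 0.23, adjusted p = 0.00885). The pore partner Kcnq1 stood at 4.25, 4.10 and 4.11 in dorsal, facial and ventral SKPs and 4.19 in MSCs, close to background in each.

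Ventral SKPs also stood apart in endothelial markers, with a list mean of 5.19 to 5.66 and 11 of 11 measured genes above background on each ventral array, against 4.04 to 4.65 and 5 to 7 genes on the other arrays. The part of this in the ventral values of Kcne3 and Kcne4 was not tested. With each single array left out, Kcne3 kept its dorsal minus ventral call except without ventral array 3 (adjusted p = 0.0518). Its facial minus ventral call and that of Kcne4 were each lost in 4 of 13 such fits, without facial array 1 or 3 or ventral array 1 or 3. The macrophage list also differed between facial and ventral cultures, and with its mean as a covariate neither the facial minus ventral difference of Kcne3 (-1.01, adjusted p = 0.169) nor that of Kcne4 (-0.91, adjusted p = 0.25) passed.

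Kcnip4 and Kcnab2 were highest in dorsal SKPs. Kcnip4, a calcium-binding partner of Kcnd channels, stood at 6.76, 5.93 and 4.93 in dorsal isolates, 5.34, 4.28 and 4.26 in facial isolates and 3.62, 4.59 and 3.71 in ventral isolates, and the MSC isolates had 3.50, 3.64, 3.50 and 3.51. Dorsal and ventral arrays did not overlap, facial arrays overlapped with both, and the MSC arrays were all below background. Dorsal minus ventral was 1.90 (SE 0.42, adjusted p = 0.0228), a call lost without dorsal array 1 (0.0551) or 2 (0.0567) or ventral array 1 (0.0984) or 3 (0.0962). Against MSCs the measured difference was 1.29 (SE 0.31, adjusted p = 0.00954) for all SKPs, at least 1.72-fold higher against background. For dorsal SKPs it was 2.34 (SE 0.40, adjusted p = 0.0019), at least 3.55-fold higher. Kcnab2, whose values are given above, had a dorsal minus ventral difference of 0.79 (SE 0.21, adjusted p = 0.0491), just within the threshold, and lost that call in 9 of 13 fits that left out 1 array (adjusted p from 0.0553 to 0.166). The F test over regions did not call Kcnab2 (adjusted p = 0.0755).

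**Figure D3:**
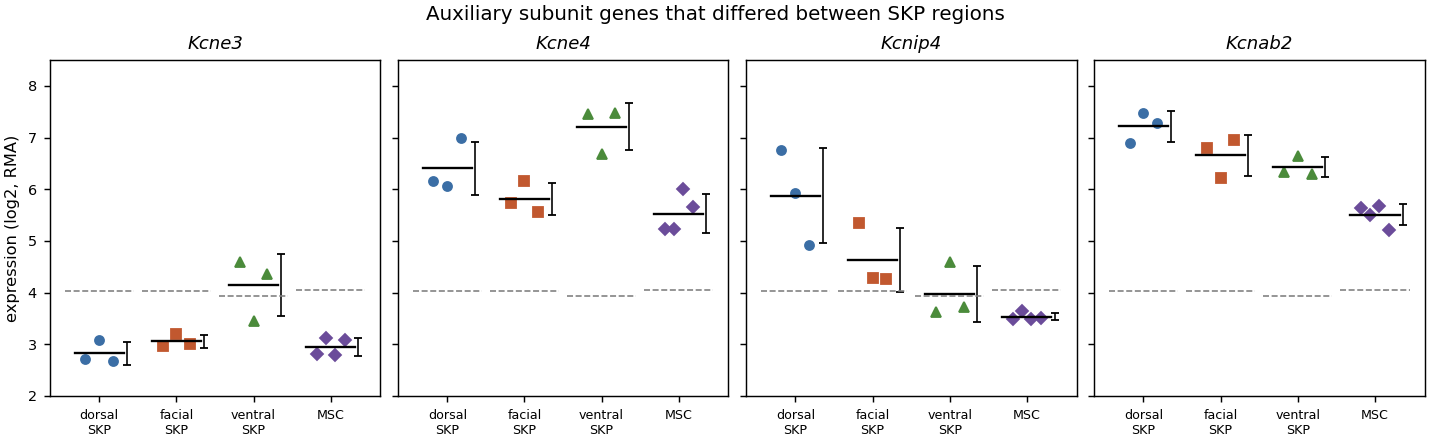
Log2 expression of the 4 auxiliary subunit genes called in a comparison of SKP regions, with 1 point per array, a bar for the group mean, an error bar for the SD (n = 3 per SKP region, n = 4 MSCs) and a dashed line for the background of the group. Kcne3 and Kcne4 are highest in ventral SKPs, and Kcnip4 and Kcnab2 in dorsal SKPs. For Kcne3 only 2 ventral arrays lie above the dashed line.

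Several of these channels are known from leukocytes, and macrophage markers differed between isolates, so their values are set side by side. On dorsal isolate 3, whose macrophage and leukocyte list mean of 4.18 was below that of every MSC array, Kcna3 was 6.91, Kcnab2 7.29, Kcnab1 8.60, Kcnh1 7.04 and Kcnt1 5.55, each above all 4 MSC arrays, as was Kcnn3 at 5.45. On the same array Kcnf1 (4.92) lay within the MSC range and Kcna1 (3.90) below it. Kcna3 was highest on facial isolate 3 (8.14), which also had the highest list mean (10.13). The highest values of Kcnn3 were 6.46 on facial isolate 3, 6.34 on facial isolate 1 and 6.15 on dorsal isolate 1, the 3 arrays with the highest list means (10.13, 7.80 and 7.32). The same 3 arrays had the highest values of Kcnt1 (6.66, 6.92 and 7.11), while Kcnab1 and Kcnh1 were highest on dorsal isolate 3. Kcnab2 was highest on dorsal isolate 2 (7.48). The part of leukocytes in these values was not tested beyond the covariate. With the list mean as a covariate, calls for SKPs against MSCs went from 25.3% to 16.4% of all genes, and from 17 to 10 members. Of these 10, 9 were among the 17, and the other was Kcnk2 (-1.85, adjusted p = 0.0346). Kcna3 (2.20, adjusted p = 0.000513), Kcnab1 (2.69, 0.011), Kcnab2 (1.17, 0.00359), Kcnh1 (1.94, 0.00314) and Kcnt1 (1.00, 0.0412) passed, and Kcna1 (1.91, 0.0645), Kcnf1 (1.89, 0.103), Kcnip4 (0.92, 0.16) and Kcnn3 (0.38, 0.147) did not. In that fit the standard error of Kcna3 was larger (0.29, against 0.24). Standard errors did not rise for every gene, and that of the sodium pump subunit Atp1b1 was 0.37, against 0.44. For facial SKPs against MSCs, where the list means do not overlap, calls over all genes went from 19% to 5.71% with the covariate, and those of members from 14 to 1, which was Kcna3.

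**Figure D4:**
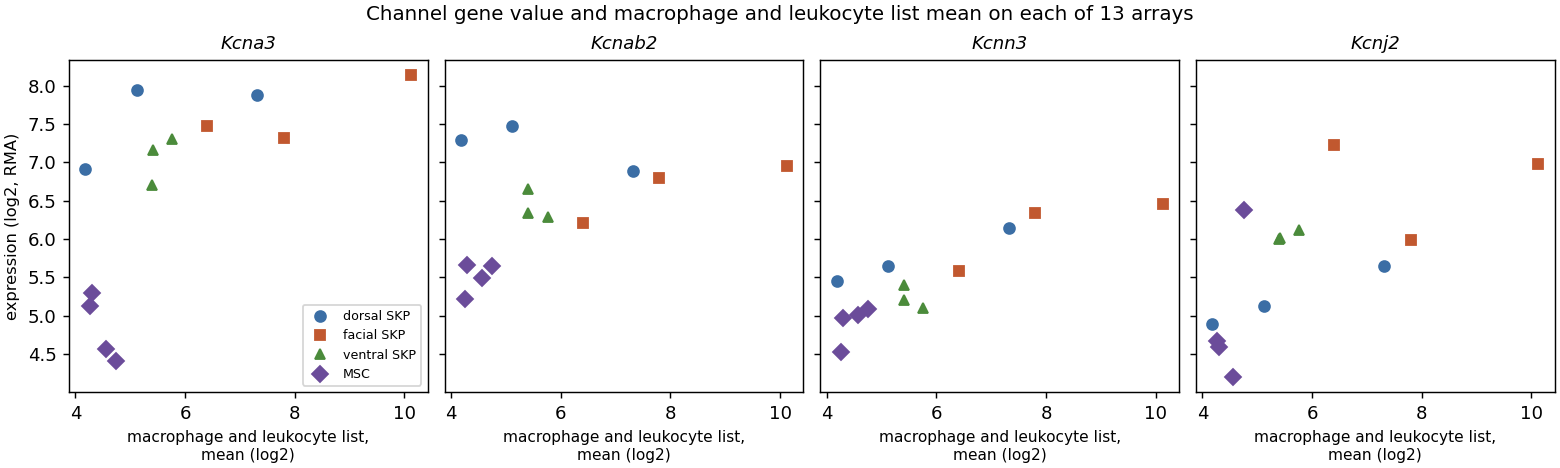
Log2 expression of Kcna3, Kcnab2, Kcnn3 and Kcnj2 against the mean of the 21 macrophage and leukocyte markers, with 1 point per array (3 dorsal, 3 facial and 3 ventral SKP arrays and 4 MSC arrays). The dorsal array with a list mean of 4.18 has Kcna3 at 6.91, Kcnab2 at 7.29 and Kcnn3 at 5.45, each above the 4 MSC points, and Kcnn3 is highest on the 3 arrays with the highest list means.

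Against MSCs, single regions gave like numbers of calls. Dorsal SKPs had 16 members called (19.3%, all genes 16.5%), with 14 higher (all genes 8.77%) and 2 lower (all genes 7.76%). Facial SKPs had 14 called (16.9%, all genes 19.0%), with 12 higher (all genes 9.47%) and 2 lower (all genes 9.58%). Ventral SKPs had 13 called (15.7%, all genes 24.4%), with 8 higher (all genes 13%) and 5 lower (all genes 11.4%). Arrays of both sides did not overlap in 19 members for dorsal SKPs (all genes 22.5%), 17 for facial SKPs (all genes 30.1%) and 25 for ventral SKPs (all genes 37.9%). These comparisons share the MSC arrays, so they are not independent of each other. The only member below background in all groups that was called was Kcnj16, in ventral SKPs against MSCs.

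Some members varied among the MSC isolates more than between groups, and these were chosen after their values were seen. Kcnmb1, the beta subunit of the large-conductance channel in smooth muscle, stood at 3.48, 3.52, 4.62 and 8.06 in MSCs and at 2.87 to 3.48 on the SKP arrays, so it was above background on MSC arrays 3 and 4 only. All SKP regions were below background, so the bound for the MSC mean was at least 1.89-fold higher against background. That bound takes no account of the spread between isolates, and MSC array 4 (8.06) was far above the other MSC arrays. The measured difference of -1.76 (SE 0.67, adjusted p = 0.0774) was not called with all arrays, and passed without MSC array 1 (-2.24, 0.0415) or 2 (-2.23, 0.0447). Kcnd3, a transient-current Kv channel of heart and neurons, stood at 4.37, 4.77, 7.98 and 8.98 in MSCs, on both sides of the SKP range of 4.54 to 6.39 (-1.07, SE 0.72, adjusted p = 0.325). MSC arrays 3 and 4, on which both were high, also had the higher smooth muscle list means given above, and the part of those cells in the result was not tested. Kcna4 was near 4 on 12 arrays (3.42 to 4.29) and at 7.43 on dorsal isolate 3.

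**Figure D5:**
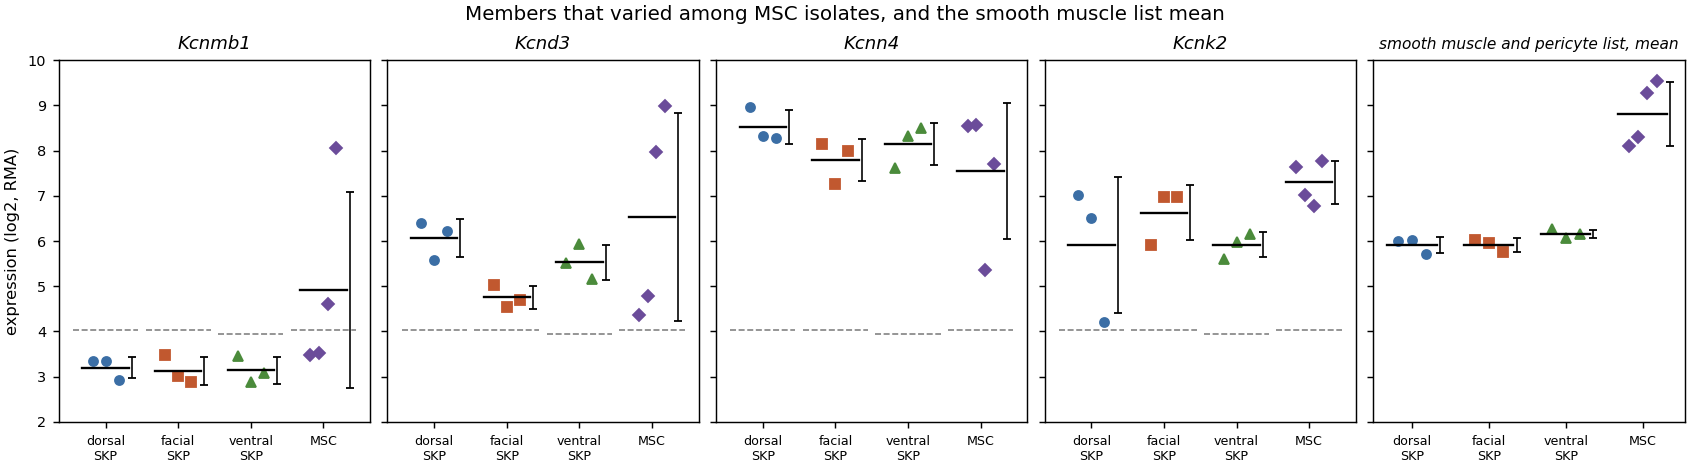
Log2 expression of Kcnmb1, Kcnd3, Kcnn4 and Kcnk2 and, in the last panel, the mean of 15 smooth muscle and pericyte markers, with 1 point per array, a bar for the group mean, an error bar for the SD (n = 3 per SKP region, n = 4 MSCs) and a dashed line for the background of the group. Kcnmb1 and Kcnd3 are high on MSC arrays 3 and 4, where the marker mean is 9.27 and 9.55, and Kcnn4 is lowest on MSC array 3 (5.37).

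Other genes that handle potassium were called about as often as genes in general. Of 45 measured genes on a list of pumps, cotransporters, pump regulators and channel partners, 7 were higher (all genes 13.1%) and 7 lower (all genes 12.2%) in SKPs than in MSCs, and the median difference was -0.04. Sgk1, a kinase that acts on several ion channels and transporters, was higher, with means of 10.65 ± 0.17 (dorsal), 11.28 ± 0.16 (facial) and 10.16 ± 0.23 (ventral), and 8.63 ± 0.49 for MSCs (2.07, SE 0.18, adjusted p = 7.35e-06). The potassium-chloride cotransporter Slc12a7 (1.15, SE 0.19, adjusted p = 0.000988) and the sodium pump regulators Fxyd6 (1.89, SE 0.35, adjusted p = 0.0018) and Fxyd5 (1.04, SE 0.25, adjusted p = 0.00959) were higher too. The sodium pump beta subunit Atp1b1 was lower (-1.75, SE 0.44, adjusted p = 0.0115), as was the potassium-dependent sodium-calcium exchanger Slc24a3 (-3.40, SE 0.55, adjusted p = 0.000794), at 3.97 to 4.47 in the SKP regions and 7.64 ± 1.78 in MSCs. Of 33 other voltage-gated and anion channel genes, 5 were higher and 2 lower, with a median difference of 0.04.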

How the data were processed

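Log2 expression values were deposited by the authors for 13 arrays, made with RMA (background correction, quantile normalisation and probe summary) at gene level in Affymetrix Expression Console, per the labels and the submitters' processing notes. Those notes also name limma, and tool versions and a genome build were not stated there. Array medians lay between 4.91 and 5.01. The table held 29215 probe sets, of which 15310 had 1 symbol in the platform annotation, 323 several and 13582 none given. One of those with several named 2 Kcn genes and was left out. All 83 Kcn symbols were the same in RefSeq.

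Group means were fitted over all 14506 genes and 13 arrays with limma 3.58.1 in R 4.3.3 (lmFit and eBayes, two-sided). P-values measure the spread between isolates that the series calls independent. The script was tested on simulated data. Arrays give no read depth, and their number limits the precision.

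Members, lists, the background rule and the rule for named genes were chosen with earlier results of these data known. The rule named called members with an absolute log2 difference of 1 or more and above background on the higher side (SKPs against MSCs, or between regions), the 10 with the highest mean, the highest of each class and 6 called partner genes. Alternatives were leaving out each array, a replicate block, a trended prior, array weights, renormalisation, a background filter, averaged probe sets and the leukocyte mean as covariate. Leaving out dorsal array 3 and facial array 3 together was chosen after seeing the data.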

Additional observations from a re-analysis of the deposited data

Results flagged for a closer look

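Of 32 genes tested, which did not include Kcna2, Kcna5, Kcna7, Kcnab3, Kcnq1 and Kcnj16, 3 had 1 MSC array far from the other 3, measured as the gap to the nearest array over the range of the 4 arrays. Chance alone gives about 1 such case in 20 genes, and some of the 32 were chosen after their values were seen. Kcnab1 was at 5.77 on MSC array 3, against 4.12 to 4.28 on the others. Kcnip4 was at 3.64 on MSC array 2, against 3.50 to 3.51 on the others, so it was far only relative to a small range. Kcns3 was at 2.45 on MSC array 1, against 3.29 to 3.41 on the others. Both genes were below background in MSCs.

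The distance from MSCs differed between SKP regions, by limma's test of the difference itself, for 4 members. Kcne3 gave -1.08 for facial minus ventral and -1.32 for dorsal minus ventral SKPs. Kcne4 gave -1.39 for facial minus ventral. Kcnip4 gave 1.90 and Kcnab2 0.79 for dorsal minus ventral SKPs.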

How the results depend on the processing

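Of the 17 members called between SKPs and MSCs, 9 (Kcna3, Kcnab1, Kcnab2, Kcne4, Kcnh1, Kcnh2, Kcnk12, Kcns3 and Kcnt1) were called under all 21 alternatives. The count ran from 17 to 20 with 1 array left out and was 10 with the leukocyte mean as a covariate (all genes 16.4%). That covariate also gave 1 for facial SKPs against MSCs (all genes 5.71%), 12 over the 4 groups (22.2%) and 0 for facial minus ventral (2.26%). Array weights gave 7 over the regions (all genes 17.2%), 7 for facial minus ventral (16.8%) and 5 for dorsal minus ventral (10.5%), so calls rose over all genes too. Without dorsal array 3 and facial array 3 together, facial minus ventral gave 1. The sample number as a replicate block gave 12 over the 4 groups (all genes 19.8%), 10 for dorsal SKPs against MSCs (12.4%), 0 over the regions (4.65%) and 1 for facial minus ventral (4.67%), but 1 of 18 pairs of arrays with the same number in different groups had deviations correlated above 0.1 (median r -0.01), so the numbers are not shown to pair the samples. With 1 array left out, counts ran from 14 to 21 over the 4 groups, 0 to 6 over the regions, 11 to 16 for dorsal, 11 to 16 for facial and 11 to 16 for ventral SKPs against MSCs, 0 to 1 for facial minus dorsal, 0 to 5 for facial minus ventral and 0 to 3 for dorsal minus ventral. Shares of all genes called varied in these fits too. They ran from 13.2% to 15.9% for dorsal SKPs against MSCs and from 2.25% to 6.46% for dorsal minus ventral. Members above background in at least 1 group numbered 21 by the median of all genes and 32 by the 99th percentile of the olfactory receptor genes. Over 735 refits of single genes, 665 kept direction and side of the threshold, 52 lost a call, 14 gained one and 4 turned sign: Kcna4 without dorsal array 3 (-0.12) and without dorsal array 3 and facial array 3 (-0.075), Kcnd1 without MSC array 3 (-0.028) and Kcnn4 without MSC array 3 (-0.12). With 1 array left out, Kcna4 ran from -0.12 to 0.45, Kcnd1 from -0.028 to 0.40 and Kcnn4 from -0.12 to 0.95. The causes were not tested. Differences near background are compressed, and isolate number limits all calls between regions.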
